A study of Mus musculus with 8 samples.

Results

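The genes described here are autosomal genes whose H3K27me3 reads lay mainly on the first of 2 alleles in primordial germ cells (PGCs) of the mouse embryo, from which oocytes and sperm descend. The genes were chosen by their measured shares. A gene of chromosomes 1 to 19 was selected when its second-allele share, the reads of the second allele divided by the reads of both, was at most 30% in each of 2 H3K27me3 libraries and between 40 and 60% in IgG E13.5. At least 10 reads in both H3K27me3 libraries and 20 in IgG E13.5 were required. Among the 12924 autosomal genes with that many reads and a balanced IgG E13.5 share, 68 met the limit, and 65 remained after Zdbf2, Grid1 and Nobox were left aside (0.503%). The shares in those 3 libraries chose the genes, so they are given below as a description, without a test. The mirrored limit, a share of at least 70%, was met by 86 genes.

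The cells were sorted by FACS from pooled embryos of 1 sex from a B6 x Cast cross. Females had the genotype Xist KO/+:Oct4-eGFP+/- and males Xist KO/Y:Oct4-eGFP+/-, so every group carried an Xist knockout allele and the Oct4-eGFP reporter. H3K27me3 was profiled by low-input CUT&RUN, in which a nuclease tethered to an antibody releases DNA at the marked sites, in female PGCs of E11.5 and E12.5. The IgG control, a measure of cleavage without a target, was profiled in male PGCs of E11.5 and in female PGCs of E12.5 and E13.5. Each group was 1 library, so no difference has a replicate check. Intervals and tests cover counting error only and compare libraries, not conditions. Which strain, and which parent, the first allele comes from is not given in the sources used here, and strain and parent of origin cannot be told apart in these files.

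H3K27me3 is the trimethylation of lysine 27 of histone H3 by Polycomb repressive complex 2, and it marks genes that are held silent, above all developmental regulators with CpG-rich promoters. It usually lies on both copies of a gene. At a small number of loci the mark lies on 1 parental copy only, and some of these are inherited from the oocyte as a form of imprinting. PGCs erase most of their DNA methylation while they settle in the gonad, and Polycomb marks are rearranged in the same period.

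Autosomal genes held 2356356 and 5020062 allele-assigned reads in H3K27me3 E11.5 and E12.5, and 1357583, 1515532 and 5705401 in male IgG E11.5, IgG E12.5 and IgG E13.5. The autosomal share pooled over genes lay between 50.8 and 51.6% in all 5 libraries. The 65 genes had a median of 78 and 162 H3K27me3 reads at E11.5 and E12.5, and 22, 35 and 98 in the IgG libraries. Cell type markers were also read for the mark. In H3K27me3 E12.5, 6 of 6 readable somatic gonad markers and 3 of 7 blood and endothelial markers were at least 2-fold above IgG E13.5. None of the 4 readable PGC markers (of 10 listed) was. By the sum of both alleles 14.4% of all readable genes were. Of 43 readable developmental regulators, 40 were as well, so these counts cannot show which cells were sorted.

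The 4 genes Sort1, Mybphl, Psrc1 and Celsr2 stood side by side on chromosome 3, within chr3:108283974-108416069 (GRCm38.p6, a span of 132 kb), and all were read mostly from the first allele. Sort1 encodes sortilin, a sorting receptor of the Golgi, Mybphl a myosin-binding protein of heart muscle, Psrc1 a coiled-coil protein of spindle microtubules, and Celsr2 an atypical cadherin of planar cell polarity. The promoters of Mybphl, Psrc1 and Celsr2 are shown because these neighbours, all selected, have promoters of very different CG content. Each is the RefSeq window of 300 bases around a transcription start in GRCm38.p6, most of it upstream, 5′ to 3′ on the gene's strand, with every CG dinucleotide in capitals.

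Mybphl: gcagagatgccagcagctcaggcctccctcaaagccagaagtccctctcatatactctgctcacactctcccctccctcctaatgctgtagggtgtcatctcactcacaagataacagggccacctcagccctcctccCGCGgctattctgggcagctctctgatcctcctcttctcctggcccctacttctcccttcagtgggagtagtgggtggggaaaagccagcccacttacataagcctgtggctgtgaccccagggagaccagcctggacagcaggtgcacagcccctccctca

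Psrc1: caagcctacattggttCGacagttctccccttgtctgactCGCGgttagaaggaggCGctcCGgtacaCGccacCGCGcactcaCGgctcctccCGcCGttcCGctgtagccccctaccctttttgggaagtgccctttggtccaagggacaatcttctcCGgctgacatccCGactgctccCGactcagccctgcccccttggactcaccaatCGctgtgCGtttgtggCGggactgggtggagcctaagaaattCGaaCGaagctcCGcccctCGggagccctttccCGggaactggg

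Celsr2: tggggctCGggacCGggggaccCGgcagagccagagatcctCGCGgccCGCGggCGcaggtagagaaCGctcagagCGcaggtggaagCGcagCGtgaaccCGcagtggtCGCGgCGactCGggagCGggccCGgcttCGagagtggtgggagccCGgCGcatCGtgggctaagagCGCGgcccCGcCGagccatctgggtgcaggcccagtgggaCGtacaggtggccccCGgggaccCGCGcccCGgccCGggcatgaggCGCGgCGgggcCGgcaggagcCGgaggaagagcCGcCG

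The Mybphl window (chr3:108364661-108364960, plus strand) holds 2 CG dinucleotides. The Psrc1 window (chr3:108383554-108383853, plus strand) holds 23, and the Celsr2 window (chr3:108415530-108415829, minus strand) holds 40, a count reached or passed by 7.49% of the 10194 promoters of readable autosomal genes. Since CG reads the same on both strands, each match counts once. Psrc1 had 58 first-allele and 2 second-allele reads at E11.5 (a share of 3.33%, exact 95% Clopper-Pearson interval 0.406 to 11.53%) and 114 and 7 at E12.5 (5.79%, 2.36 to 11.6%). Its IgG reads were 3 and 5 in male E11.5, 8 and 7 in E12.5 and 14 and 13 in E13.5. That made Psrc1 the gene with the lowest share of all 12924 at E12.5.

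Mybphl had 161 first-allele and 21 second-allele reads at E11.5 (11.54%) and 394 and 57 at E12.5 (12.6%), against 11 and 8, 21 and 18, and 54 and 60 in male IgG E11.5, IgG E12.5 and IgG E13.5. Celsr2 followed with 181 and 43 (19.2%) and then 306 and 63 (17.1%), against IgG reads of 17 and 20, 44 and 44, and 72 and 62. Sort1 had 158 and 37 (19%) and 408 and 101 (19.8%), against 68 and 64, 63 and 72, and 252 and 225. In the adjacent gene on either side the share was above 50%. Psma5, a proteasome subunit before Sort1, had shares of 51.5 and 57.8% (33 and 64 reads), and Sars, the seryl-tRNA synthetase after Celsr2, had 62.9 and 60.9% (35 and 92 reads). On either allele the H3K27me3 levels of Psma5 and Sars were below those of IgG E13.5 (log2 ratios of -1.52 to -0.07), so their balanced reads do not show where the skew of the mark ends. The nearest flanking gene at least 2-fold above IgG E13.5 on both alleles was Sypl2, farther out, with shares of 44.4 and 43.2% and log2 ratios of +2.36 to +2.67. Its IgG E13.5 share was 40%. Beyond Sars, 5330417C22Rik had shares of 38.3 and 42.8% (337 and 747 reads), with 45.5% in IgG E13.5. The next gene, 1700013F07Rik, had 40 and 39.1% (30 and 64 reads), with 43.3% in IgG E13.5.

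**Figure D1:**
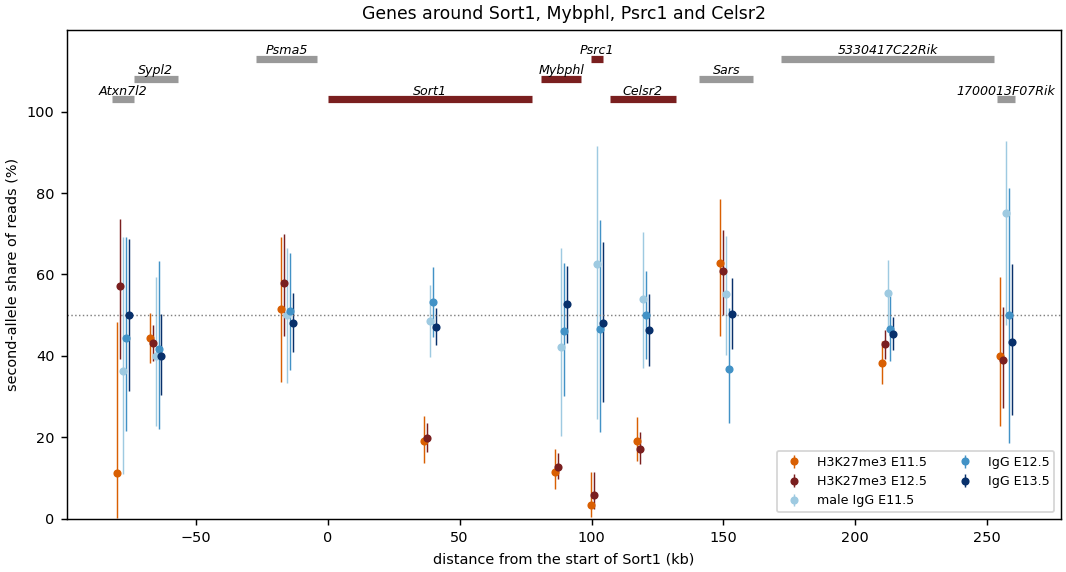
Second-allele share of reads (y axis, percent) of the genes around Sort1, at the middle of each gene's position in kb from the start of Sort1 (x axis), in the 5 libraries, with exact 95% intervals and gene bodies as bars at the top (dark red: the 4 selected genes). The orange and dark red points of Sort1, Mybphl, Psrc1 and Celsr2 lie at or below 19.8%, while the blue IgG points of the same genes lie between 42.1 and 62.5%, and the H3K27me3 points of Psma5 and Sars at or above 51.5%.

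The level of each allele differed along these 4 genes. Levels are reads of 1 allele per 1000000 autosomal reads of the library, and ratios over IgG are log2 values after 1 was added to both levels. First-allele levels over IgG E13.5 were +2.73 and +2.93 for Mybphl, +2.89 and +2.78 for Psrc1 and +2.51 and +2.19 for Celsr2 at E11.5 and E12.5, but +0.59 and +0.87 for Sort1. Second-allele levels were near those of IgG for Mybphl (-0.22 and +0.10) and below them for Sort1 (-1.28 and -0.94). On this scale the middle gene of all 12924 lies at -0.47 and -0.45 for the first allele and -0.45 and -0.48 for the second, and values are to be read against that shift. Scaling by median-of-ratios size factors puts the middle gene near 0.

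Among the 25 genes with the most H3K27me3 reads in their shallower library, each with at least 111, Greb1l was the deepest. Hmga2 and Macroh2a2 are described with it as genes of chromatin and development. Greb1l, needed for kidney and reproductive tract development, had 934 first-allele and 350 second-allele reads at E11.5 (27.3%, 24.8 to 29.8%) and 1720 and 580 at E12.5 (25.2%, 23.5 to 27%). Its IgG shares were 47.3, 52.6 and 51.6% in male E11.5, E12.5 and E13.5, the order used below. Hmga2, an architectural chromatin protein of growing embryonic cells, had 392 and 145 (27%) and 995 and 406 (29%), with IgG shares of 50, 53.9 and 47.6%. Macroh2a2 encodes the histone variant macroH2A2. It had 255 and 65 reads (20.3%) and 380 and 96 (20.2%), with IgG shares of 45.1, 46.4 and 46.8%. All 3 had first-allele levels at least 2-fold above IgG E13.5 at both stages (+1.53 and +1.32, +1.29 and +1.54, +1.66 and +1.15) and second-allele levels between -0.60 and +0.39.

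Adhesion and signalling genes included some of the most one-sided of the deeply read genes. Pxn, the focal adhesion adaptor paxillin, had 366 first-allele and 57 second-allele reads at E11.5 (13.48%, 10.4 to 17.1%) and 614 and 143 at E12.5 (18.9%, 16.2 to 21.9%), with IgG shares of 49.2, 49.5 and 47.2%. Gprc5a, an orphan receptor induced by retinoic acid, had 130 and 27 (17.2%) and 191 and 40 (17.3%), with IgG shares of 60, 48.5 and 44.4%. Igsf8, an immunoglobulin-domain partner of tetraspanins, had 112 and 25 (18.2%) and 243 and 70 (22.4%), with 48.7, 42 and 45.3% in IgG. The files give Igsf8 a span of 58201 bases where RefSeq gives 7477, so its reads may cover more than the gene. Arhgef5, a guanine nucleotide exchange factor, had 102 and 25 (19.7%) and 302 and 92 (23.4%), with 47.2, 42.9 and 50.9% in IgG. For Dsg4, a desmoglein of hair, reads were 89 and 22 (19.8%) and 166 and 69 (29.4%), with 46.7, 52.8 and 54.4% in IgG. In each of these genes the intervals of both H3K27me3 shares ended below 50%.

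Other receptors and adaptors stood nearer to the limit of 30%. Gipc2, a PDZ-domain adaptor, had 661 and 276 reads at E11.5 (29.5%) and 1252 and 487 at E12.5 (28%), with IgG shares of 41.6, 43.8 and 47.2%, all under 50%. Cd22, an inhibitory receptor of B cells, had 101 and 38 (27.3%) and 155 and 65 (29.5%), with 48.6, 40.9 and 51%. F3, tissue factor of blood clotting, had 93 and 31 (25%) and 176 and 60 (25.4%), with 50, 44.8 and 48.8%. In Ticam1, an adaptor of Toll-like receptors, reads were 91 and 23 (20.2%) and 129 and 51 (28.3%), with 50, 48 and 52.9%. Lhfpl2, a tetraspan membrane protein, had 482 and 164 (25.4%) and 786 and 326 (29.3%), with 42.9, 54.8 and 47.9%.

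Genes of vesicles and channels formed another set, several of them known from neurons. Syngr1, the synaptic vesicle protein synaptogyrin, had 270 first-allele and 53 second-allele reads at E11.5 (16.4%, 12.54 to 20.9%) and 542 and 101 at E12.5 (15.7%, 13 to 18.8%), with IgG shares of 45.9, 55 and 50.2%. Stx1a, a syntaxin of synaptic release, had 176 and 49 (21.8%) and 420 and 128 (23.4%), with 46.9, 50.5 and 48.5%. Svop, also of synaptic vesicles, had 81 and 30 (27%) and 229 and 89 (28%), with 38.2, 47.7 and 46.1%. Kcng4, a modifier subunit of voltage-gated potassium channels, had 252 and 90 (26.3%) and 345 and 146 (29.7%), with 38.1, 50 and 52% over few IgG reads. Slc44a3, a choline transporter-like protein, had 253 and 108 (29.9%) and 701 and 251 (26.4%), with 54, 50 and 48.6%.

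Enzymes completed the deeply read genes. Acp5, the tartrate-resistant acid phosphatase of osteoclasts, had 177 and 42 reads at E11.5 (19.2%) and 310 and 68 at E12.5 (18%), against only 9 and 8, 19 and 11, and 29 and 32 in the IgG libraries. Car5a, a mitochondrial carbonic anhydrase, had 282 and 88 (23.8%) and 505 and 196 (28%), with IgG shares of 46.7, 46.6 and 50%. Nmnat1, which makes NAD in the nucleus, had 86 and 26 (23.2%) and 197 and 65 (24.8%), with 56.7, 60 and 54.1%. The plot of shares by gene shows that no H3K27me3 interval of the 24 genes it shows reached 40%.

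**Figure D2:**
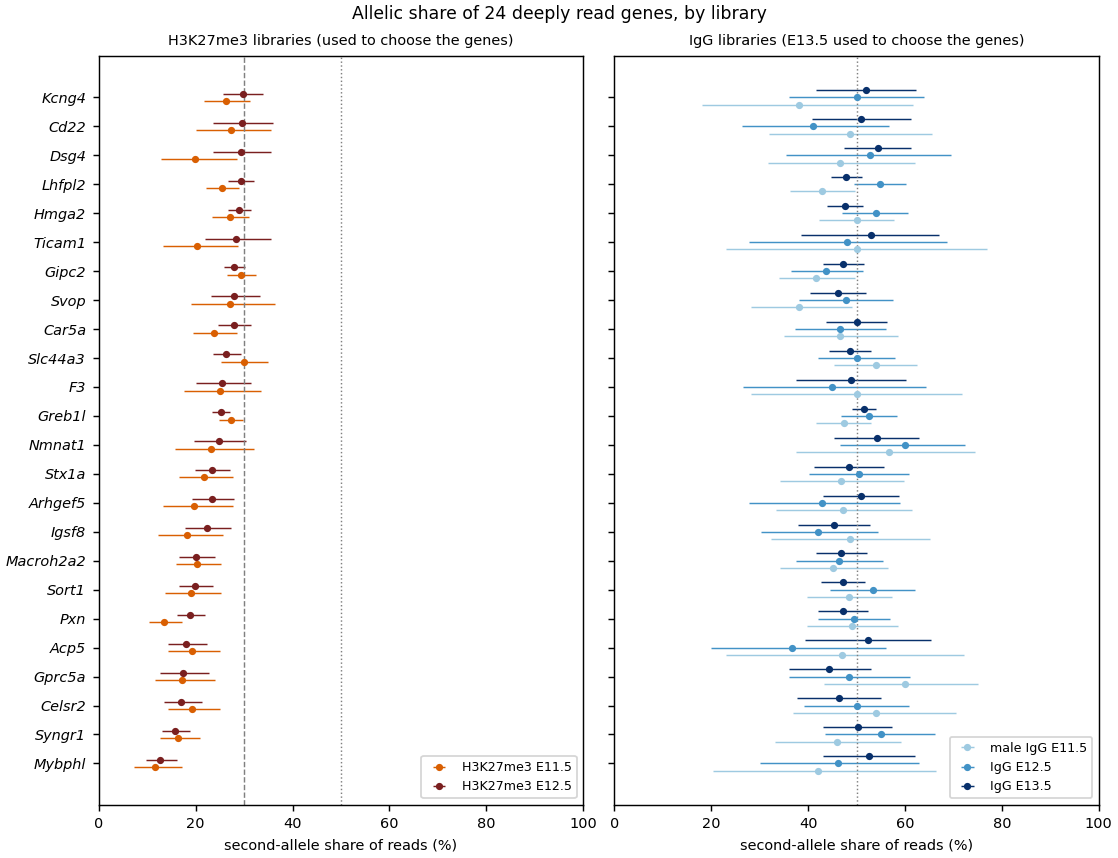
Second-allele share of reads (x axis, percent) of 24 of the 25 genes with the most H3K27me3 reads in their shallower library (y axis), with exact 95% intervals, in the H3K27me3 libraries (left) and the IgG libraries (right). The dashed line is the 30% limit that chose the genes and the dotted line is 50%; the H3K27me3 points lie between 11.54 and 29.9%, and most IgG intervals include 50%.

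Over all 65 genes second-allele shares ran from 3.33 to 30% in the E11.5 library, with a median of 22.2%, and from 5.79 to 30% in the E12.5 library, with a median of 24.8%. Shares of at most 30% were required, so their intervals describe depth only. In 57 genes both intervals ended below 50%. In the other 8 (Vmn1r52, Psg26, Cox4i1, 9330159F19Rik, Derl2, Prl7b1, Cct8 and Olfr1418), with at most 27 reads in their shallower H3K27me3 library, an interval reached 50%. In 13 genes the share was under 20% in both libraries: Uckl1, Sort1, Mybphl, Psrc1, Celsr2, Pxn, V1ra8, Gprc5a, Tuba3b, Cyp2b19, Cyp2g1, Acp5 and Syngr1. Just inside the limit, by the larger of both shares, were Cct8 (30 and 30%), Slc44a3 (29.9 and 26.4%) and Nrsn2 (29.8 and 24.8%). Just outside it were Fam50b (24.3 and 30.1%), A830031A19Rik (29.3 and 30.2%) and Ccnb1ip1 (30.2 and 28.9%).

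IgG E12.5 and male IgG E11.5 had no role in the choice of genes, and in both the reads of these genes were divided nearly evenly. The median share was 50% in IgG E12.5, where 30 genes lay below 50% and 30 above, and 49.2% in male IgG E11.5, where 33 lay below and 26 above. Each gene was compared with the library's autosomal share by a two-sided exact binomial test. With Benjamini-Hochberg adjustment over all autosomal genes tested, it called 0 of 58 testable genes in IgG E12.5, where 3.46% of all autosomal genes were called. In male IgG E11.5 it called 0 of 59, against 3.66% of all. Both percentages cover all autosomal genes with at least 10 reads, whether or not their IgG E13.5 share was balanced. The selected genes had to be balanced in IgG E13.5, so these contrasts may follow from the choice and are no independent check. At an unadjusted p below 0.05 there was 1 gene in IgG E12.5 (Gipc2) and 3 in male IgG (Gipc2, Lhfpl2 and Svop), each with more first-allele reads. The smallest adjusted p in this exact test was 0.465 and 0.27. With a median of 35 and 22 reads, a moderate skew of a single gene was not detectable in these libraries.

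Pooled over the genes, the share was 23.4% (22.5 to 24.2%) of 9963 reads at E11.5 and 24.6% (24 to 25.2%) of 19762 reads at E12.5. It was 50.8% (49.2 to 52.4%) of 3727 reads in IgG E12.5, 49.3% (48.4 to 50.3%) of 11551 in IgG E13.5 and 48% (46.1 to 49.8%) of 2888 in male IgG E11.5. The autosomal shares of these IgG libraries were 51.1, 51.3 and 50.8%. So the genes lay slightly to the first-allele side of the autosomes in male IgG E11.5 and IgG E13.5, by far less than in H3K27me3.

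The first allele gained H3K27me3 over IgG in most of these genes, while the second allele stayed near the level of the middle autosomal gene. First-allele levels over IgG E13.5 had a median of +1.29 at E11.5 (2.45-fold) and +1.18 at E12.5 (2.26-fold). Second-allele levels had a median of -0.44 (0.738-fold) and -0.37 (0.774-fold), beside -0.45 and -0.48 over all genes. With size factors the medians were +1.77 and +1.66 for the first allele (3.4-fold and 3.16-fold) and -0.04 and +0.05 for the second (0.974-fold and 1.04-fold). Over IgG E12.5, which had no role in the choice, they were +1.16 and +1.01 for the first and -0.69 and -0.53 for the second on total reads. The middle gene of all lay at -0.54 and -0.55 for the first and -0.51 and -0.55 for the second in that comparison. That the alleles differ follows from how the genes were chosen. The read minimum in H3K27me3 also bears on the levels: with at least 20 reads the first-allele medians over IgG E13.5 were +1.53 and +1.41, and the second-allele medians -0.30 and -0.17.

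Counted by genes, the first allele was at least 2-fold above IgG E13.5 in 39 of 65 at E11.5, where 14.9% of all genes were, and in 38 at E12.5, where 14.1% were. The second allele was at least 2-fold above IgG in 5 genes at E11.5 (15.3% of all genes) and 5 at E12.5 (14% of all genes). It was at least 2-fold below IgG in 14 genes at E11.5 (26.7% of all genes) and in 10 at E12.5 (25.3%), and with size factors in 4 and 4. The selection used these alleles' shares, so the counts describe the genes and are no test. Neither allele was 2-fold from IgG E13.5 in 12 genes at E11.5 (18.5%, against 46.6% of all genes). At E12.5 that held for 18 genes (27.7%, against 50.6% of all genes). Both stages put 55 of the 65 genes in the same class.

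A first allele at least 2-fold above IgG E13.5 with a second within 2-fold was seen in 34 genes at E11.5 (2.68% of all genes). At E12.5 it was seen in 32 (2.69% of all genes), and the choice of genes favours this class. In 30 genes it held at both stages. They include Mybphl, Psrc1, Celsr2, Pxn, Syngr1, Macroh2a2, Hmga2, Greb1l, Stx1a and Foxa3, a forkhead factor of liver and gut. Syngr1 was among the higher of them, with +2.64 and +2.56 on the first allele and +0.33 and +0.18 on the second. Mical1, an enzyme that oxidises actin, had +2.13 and +1.18 against -0.94 and -0.53. With size factors this class held 37 genes, and over IgG E12.5 it held 21.

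Both alleles were at least 2-fold above IgG E13.5 in 5 genes at E11.5 (7.69%, against 12.2% of all genes). At E12.5 they were in 5 (7.69%, against 11.4% of all genes). The same 5 genes were in this class at both stages, the first allele by more. They include Gipc2, Cyp2a5, Kcng4 and Acp5. Acp5 had the highest first-allele levels of all 65 (+3.65 and +3.37, or 12.51-fold and 10.3-fold), with +1.51 and +1.14 on the second allele. Kcng4 had +3.55 and +2.92 on the first and the highest second-allele levels, +1.98 and +1.60. Gipc2 had +2.42 and +2.25 against +1.33 and +1.06. Over IgG E12.5 no gene had both alleles 2-fold higher at both stages, and only Gipc2, Kcng4 and Acp5 did at E11.5. Over IgG E13.5 with size factors, Car5a, F3 and Ticam1 joined the 5 genes at both stages.

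A first allele within 2-fold of IgG E13.5 with a second at least 2-fold below it was seen in 13 genes at E11.5 (20%, against 7.79% of all genes). At E12.5 it was seen in 8 (12.3%, against 7.78% of all genes). In 8 genes it held at both stages: Olfr272, Ugt2b38, Pygo1, Derl2, Prl7b1, Olfr165, Cct8 and Olfr1418. Among them are 3 olfactory receptors, a glucuronosyltransferase (Ugt2b38), a Wnt pathway coactivator (Pygo1), a factor of protein degradation at the endoplasmic reticulum (Derl2) and a subunit of the chaperonin that folds actin and tubulin (Cct8). Pygo1, the deepest, had 47 and 16 reads in the E11.5 library, 94 and 35 in the E12.5 library and 84 and 93 in IgG E13.5, giving +0.41 and +0.33 on the first allele and -1.15 and -1.12 on the second. Derl2 had 12 and 4, 22 and 9, and 41 and 48, giving -0.43 and -0.60 against -1.80 and -1.75. In 9330159F19Rik both alleles were at least 2-fold below IgG, as in 18.9 and 17.5% of all genes at E11.5 and E12.5. These levels are low, and with size factors only Derl2 and 9330159F19Rik had a second allele at least 2-fold lower and a first within 2-fold at both stages. Over IgG E12.5 the class held 6 genes, Pygo1 and Derl2 among them. Uckl1, a uridine-cytidine kinase, was the 1 gene with a first allele 2-fold above IgG E13.5 and a second 2-fold below, at E12.5 only. It had 111 and 11 reads against 29 and 36 in IgG E13.5. This class depended on the control. Over IgG E12.5 it held 6 genes at E11.5 (0.077% of all genes) and 6 at E12.5 (0.070%). Psrc1, Tuba3b and Fbxo17 were in it at both stages, and Uckl1 at neither.

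**Figure D3:**
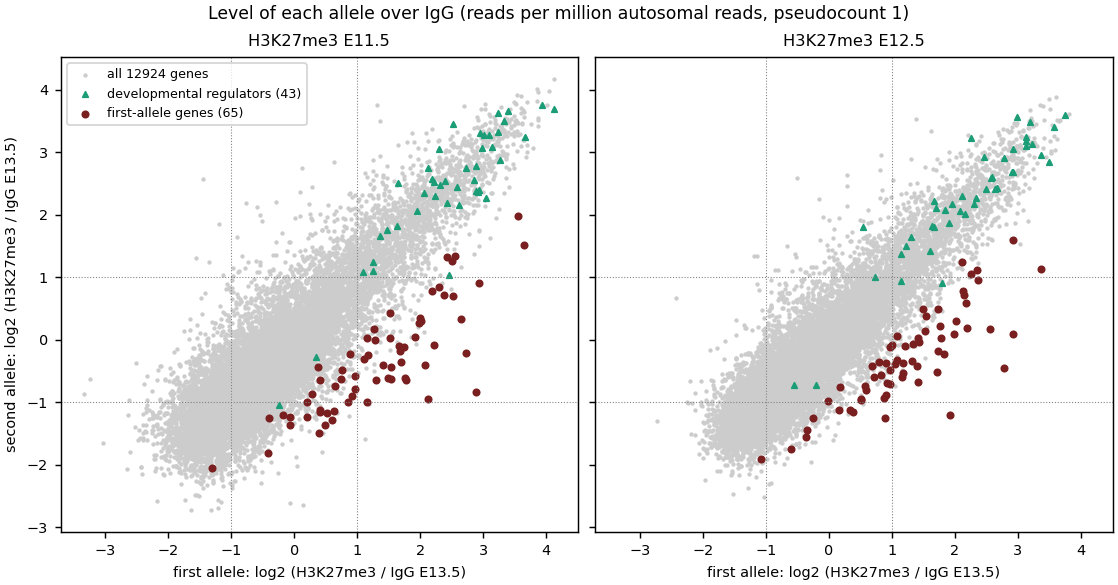
Level of the second allele over IgG E13.5 (y axis) against that of the first (x axis), both as log2 ratios of reads per 1000000 autosomal reads, in H3K27me3 E11.5 (left) and E12.5 (right), for all 12924 readable autosomal genes (grey), 43 developmental regulators (green) and the 65 genes (dark red). Dotted lines mark 2-fold; by the choice of genes the dark red points lie below the diagonal of equal alleles, mostly to the right of the middle of all genes (-0.47 and -0.45).

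The sum of both alleles, which the selection did not use beyond the read minimum, was also higher in these genes than in most. Its median over IgG E13.5 was +0.81 at E11.5 and +0.69 at E12.5, beside -0.47 and -0.48 over all genes. It was at least 2-fold above IgG E13.5 in 25 of 65 genes at E11.5, where 15.4% of all genes were, and in 24 at E12.5, where 14.4% were. Over IgG E12.5 the counts were 16 at E11.5 (13.2% of all genes) and 15 at E12.5 (13.4%). Kcng4 (+3.01 and +2.44) and Acp5 (+3.01 and +2.71) had the highest sums. Developmental regulators, the classic Polycomb targets, had medians of +2.59 and +2.30 on the first allele and +2.52 and +2.31 on the second, so the median first allele of the 65 genes lay below that of such targets.

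Sorted by what their products do, a grouping made after the genes were known, 20 genes belonged to adhesion, receptors and signalling, 12 were metabolic enzymes, 9 belonged to membrane traffic, vesicles and channels, 7 were chemosensory receptors, 6 acted in chromatin and transcription, and 11 were others. First alleles were at least 2-fold above IgG E13.5 at E12.5 in 13 of 20, 9 of 12, 6 of 9, 1 of 7, 4 of 6 and 5 of 11 of these. The chemosensory receptors (5 olfactory receptors, Vmn1r52 and V1ra8) had median first-allele levels of +0.40 and +0.72 and second-allele levels of -1.23 and -0.98 over IgG E13.5, the lowest of these groups. Over IgG E12.5 their medians were +1.05 and +1.01, and -0.69 and -0.44, close to those of all 65 genes. They had at most 32 reads in their shallower H3K27me3 library, so single genes among them are imprecise. By symbol, 19 of the 65 genes (29.2%) were put with multi-copy families, against 10.6% of the readable autosomal genes. Symbols of the Rik and Gm type, such as 9330159F19Rik, were counted too, though they name no family. In true families reads may be divided among near-identical copies.

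Between the libraries of E11.5 and E12.5 the share could differ only within the limit of 30%, so it is described without a test. It was higher at E12.5 in 49 genes, lower in 15 and the same in 1, with a median difference of +1.73 points. The limit and the unequal depth (a median of 78 reads at E11.5 and 162 at E12.5) bear on that direction. No change with stage is read from it. Mical1 went from 82 and 9 reads to 88 and 27, a share of 9.89% and then 23.5%. Pxn went from 13.48 to 18.9%. The sum of both alleles changed 2-fold in none of the 65 genes: 0 were higher at E12.5, where 0.139% of all genes were, and 0 lower, where 0.464% were.

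Genes next to the selected ones often leaned to the same allele. Of 130 nearest flanking genes, 114 had enough reads, and their median share was 43.2% at E11.5 and 42.5% at E12.5, beside 50.1 and 50% for the flanks of all genes. A share of at most 40% in both libraries was found in 35 of 114 (30.7%), against 3.85% for all genes. Some flanks are themselves selected, which lowers these values, so they were also left out. The median share of the nearest flanks was then 46.7% at E11.5 and 44.7% at E12.5. A share of at most 40% in both libraries was then found in 18 of 97 (18.6%). At the second position it was found in 12 of 105 (11.4%), and at the next in 11 of 107 (10.3%). In IgG E13.5 the nearest flanks had a median of 50.2%. Of the flanks, 5 overlap the gene, and there reads cannot be assigned to 1 of both.

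**Figure D4:**
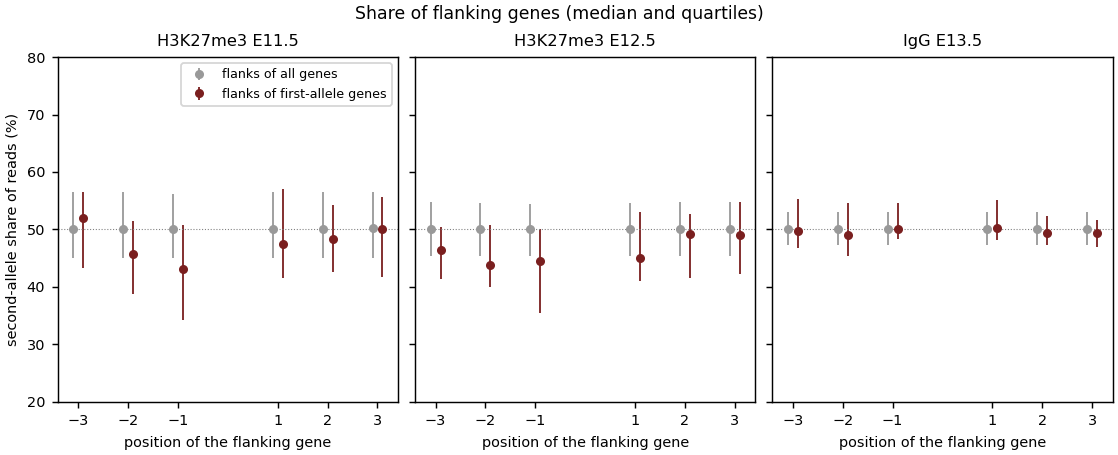
Second-allele share of reads (y axis, percent) of the 3 nearest genes on either side (x axis: -3 to 3 by position along the chromosome), in H3K27me3 E11.5, H3K27me3 E12.5 and IgG E13.5; points are medians and bars quartiles, grey for the flanks of all readable genes and dark red for flanks of the 65 genes that are not themselves selected. The dark red medians at position -1 are 43.1 and 44.4% in H3K27me3 and 50% in IgG E13.5, and at position 1 they are 47.5 and 45% and 50.3%.

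Flanking shares differed between loci. Of 39 genes with both nearest flanks readable and not selected, 14 had both flanks above 40% in both libraries. Among them, Car5a lay between Slc7a5 (50 and 53.6%) and Banp (52.3 and 48.7%). Macroh2a2 lay between Aifm2, which overlaps it (42 and 47%), and Col13a1, with 40.8 and 40.9% over 701 and 1349 reads. In contrast, Mical1 had Smpd2 beside it at 31.6 and 30.8%, though with 19 and 26 reads.

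The genes were found on 17 of the 19 autosomes, and 18 of them stood within 1 Mb of another, in 7 groups. Cyp2b19, Cyp2g1 and Cyp2a5, cytochrome P450 genes of skin, olfactory mucosa and liver, lay within chr7:26757142-26843264 (86.1 kb). Their shares were 18 and 16.5%, 13.2 and 16.9%, and 24.5 and 24.6%. The next P450 genes had 32.5 and 39.8% on one side (Cyp2b23) and 57.8 and 56.6% on the other (Cyp2a22). Ffar1, a fatty acid receptor, and Cd22 lay within chr7:30860568-30880342. The related receptor Ffar3 beside Ffar1 had 10 and 33.3% over 10 and 21 reads. Next to it, Ffar2 had 15.9 and 25.3%, but its IgG E13.5 share of 62.5% kept it out, and Mag on the other side had 47.8 and 41.5%.

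Around Rpl3 and Syngr1 (chr15:80077781-80119501) the neighbours were skewed in another way. Rpl3, a protein of the large ribosomal subunit, had shares of 26.3 and 26.6% over 38 and 124 reads. Pdgfb, a growth factor gene before Rpl3, had a share of 75.6% (69.2 to 81.2%) in the E11.5 library and 37.2% (32.2 to 42.3%) in the E12.5 library. Cbx7, a Polycomb protein gene, had 63.7 and then 35.9%, and Mgat3, on the far side of Syngr1, 61.9 and then 40.5%. These 3 neighbours thus leaned to the second allele in the E11.5 library and to the first in the E12.5 library, while Syngr1 stayed at 16.4 and 15.7%. With 1 library per stage, stage and library cannot be told apart there.

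The other groups were Slc44a3 and F3 (276 kb, with 4930432M17Rik between them at 41.5 and 48%), Vmn1r52 and V1ra8 (24.9 kb), and Ceacam12, Psg26 and Foxa3 (958 kb). Vmn1r52 and V1ra8 are vomeronasal receptors, and Ceacam12 and Psg26 belong to the carcinoembryonic antigen family. Their reads were few: V1ra8 had 10 and 2 at E11.5 and 24 and 5 at E12.5.

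Promoters of the selected genes held fewer CG dinucleotides, by the median, than those of all readable genes. Of the 65 genes, 48 matched a RefSeq promoter of 300 bases (GRCm38.p6), with a median of 12 CG dinucleotides, beside 18 over 10194 readable autosomal genes. Where a gene had several promoter windows, the window with the most CG dinucleotides was used, for the selected genes and for all. At least 10 were found in 26 (54.2%), against 69.9% of all, and at least 20 in 18 (37.5%), against 47.2%. Genes with at least 10 had median first-allele levels of +1.60 and +1.53 and second-allele levels of -0.15 and -0.01. Genes with fewer had +0.80 and +0.93, and -0.77 and -0.58. Over all genes the order was the opposite, with first-allele medians of -0.71 and -0.72 in genes with at least 10 and 0.00 and +0.10 in those with fewer. Genes put with multi-copy families were more frequent among the selected genes than among all. Several of them held few CG dinucleotides, such as Olfr272 (2), Ugt2b38 (1) and Zfp239 (6), as did some other genes, such as Mybphl (2). Whether the families account for the lower median or for the contrast of levels was not tested. Gene spans in the files were also shorter, with a median of 14941 bases beside 29625.5, and in 10 genes the span differed by more than 1.5 times from RefSeq.

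None of the selected genes was in any of 9 lists of known gene classes. These were canonical imprinted genes (55 readable), genes with oocyte-derived H3K27me3 imprints (30), developmental regulators (43), germline genes (25), PRC2 subunits and partners (7), housekeeping genes (14), and the PGC, somatic gonad and blood markers. Zdbf2 and Nobox, which are on lists, met the rule but had been left aside. Only 65 of 12924 readable genes were selected, so few or none would fall in lists of this size, and their absence says little. The median second-allele share in the imprinted list was 51.8 and 52.7% at E11.5 and E12.5, and in the list of oocyte-derived imprints 50.5 and 48.4%. A median near 50% can hide genes skewed to opposite alleles.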

How the data were processed

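Per-gene tables of 5 CUT&RUN libraries were used, 1 for each group; the other 3 of the 8 labelled samples, second H3K27me3 replicates, were not analysed here. The deposited values are whole-number counts of reads on each of 2 alleles over a gene's span, not normalized by the authors, and a fraction, which the authors give per gene and which equals the second count over the sum of both. Per the submitters' processing notes, tools included Trim Galore 0.6.6, Bowtie2 2.4.2, SAMtools 1.11, GATK and featureCounts, on mm10. How duplicates, strand and allele assignment were handled is not given in the sources used here; remaining PCR duplicates would make intervals too narrow, and reads without a strain variant carry no allele.

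Genes were matched to RefSeq (GRCm38.p6) by symbol, all 65 of them. Levels were scaled to autosomal reads with a pseudocount of 1, and as an alternative by size factors. Intervals are exact Clopper-Pearson at 95%. Exact binomial tests of the IgG libraries ran over all autosomal genes with at least 10 reads (threshold 0.05 after adjustment), with Python 3.11.15, pandas 2.3.3 and scipy 1.17.1, and were tested on simulated data. No test compares levels, with 1 library per group, and Fisher's tests between the H3K27me3 libraries are not reported, since the choice of genes limits both shares. Alternatives varied the share limit, read minimum, IgG window, control, scaling, pseudocount, fold and number of flanks.

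Values in every library are given for the 25 genes with the largest smaller-of-both H3K27me3 read totals, except 1 that is not reported here; others are named for their class, position or nearness to the limit, after their values were seen. The genes and lists were chosen with earlier results of these data known.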

Additional observations from a re-analysis of the deposited data

How the results depend on the processing

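Across 16 results and 75 alternatives, 52 values stayed within their limits, 23 moved and none reversed a call. The number of genes was 30 at a share limit of 25%, 145 at 35% and 26 with a minimum of 100 reads, the last chosen after seeing the data. The median first-allele log2 level was 1.77 (E11.5) and 1.66 (E12.5) with size factors, and 0.94 at E12.5 with a pseudocount of 4. The second-allele median was -0.038 and 0.055 with size factors, so its sign at E12.5 depends on scaling. It was -0.69 at E11.5 over IgG E12.5, and -0.20 and -0.068 without multi-copy families, taken by symbol as above (added after seeing the data). Genes with a second allele 2-fold below IgG numbered 4 and 4 with size factors, 30 and 23 at 1.5-fold, 5 and 4 without multi-copy families, and 18 at E12.5 over IgG E12.5. Genes with both alleles summed 2-fold above IgG numbered 38 and 39 with size factors, and 16 and 15 over IgG E12.5. The median share of flanks at E12.5 was 45.6% over the nearest 3 on each side. The cause of these moves was not tested, apart from fewer or more genes passing a limit.

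Depth limits the sparse genes most: 23 of the 65 had under 50 reads in an H3K27me3 library. Over IgG E12.5 classes by allele were also counted, after seeing the data. No replicate could be left out, since each group had 1 library. No paired analysis was possible because the second replicates of the labels were not analysed here.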
